A study of Mus musculus with 8 samples.

Results

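The distal end of the imprinted Dlk1-Dio3 locus was examined in the liver of mice with diet-induced steatohepatitis, through every array probe for either arm of the 30 hairpins that lie between miR-380 and miR-410, with the miR-376 hairpins and the group of miR-379, miR-411 and miR-299 left out. The probes were chosen by name, with earlier results of these data known, and they were 60 of the 1135 miRNA probes on the array, 2 for each hairpin. Male C57BL/6N mice, 8 weeks old at the start, spent 15 weeks on an MCD diet, which lacks methionine and choline. The MCD group received no drug, and the MCD + metformin group received 2.4 mg/day metformin in the drinking water over the same 15 weeks. Both groups therefore shared the diet, which is used to induce steatohepatitis and does so without the obesity and insulin resistance of the human disease. Total RNA from whole liver was hybridised to 1 single-colour array per mouse, 4 for MCD and 4 for MCD + metformin. The sources used here do not say how the arrayed animals were picked from each group. Arrays of normally fed mice were not used here.

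The locus is imprinted, and its miRNAs are made from long noncoding transcripts of the maternal chromosome. Hairpins are cut from these transcripts, each hairpin yields a 5p and a 3p arm, and the arm that is retained pairs with messenger RNAs through its seed, bases 2 to 8. The cluster is known for high expression in the embryo, the placenta and the adult brain. In mice, deletion of the region from miR-379 to miR-410 is known to disturb the adaptation of the newborn liver to fasting. On this array an asterisk marks the arm that was regarded as the minor product, and a plain name the major one.

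In RefSeq (GRCm38.p6), the hairpins lie on the plus strand of chromosome 12 and span 32.0 kb, chr12:109711803-109743795. The last 8 hairpins, from miR-154 to miR-410, start inside the long noncoding RNA gene Mirg, and the other 22 start outside any annotated gene other than their own. A mature sequence was found for 57 of the 60 probes, and the exceptions were miR-487b, miR-485 and miR-539-3p. The sequences below belong to the miRNAs on which the comparison turns, namely the 4 with a lower and the 1 with a higher signal at an unadjusted p under 0.05, the next 2 lower ones, the brightest member, and miR-381 for its likeness to miR-300. They are written 5′ to 3′ with the seed in capitals.
miR-154*: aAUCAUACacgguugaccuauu
miR-410: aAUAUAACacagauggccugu
miR-541: aAGGGAUUcugauguuggucacacu
miR-300: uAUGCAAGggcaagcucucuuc
miR-381: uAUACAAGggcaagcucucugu
miR-380-5p: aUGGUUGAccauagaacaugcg
miR-377: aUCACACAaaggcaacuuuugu
miR-543*: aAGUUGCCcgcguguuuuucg
miR-494: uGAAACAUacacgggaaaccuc
These mature sequences lie at chr12:109738474-109738495 (miR-154*), chr12:109743764-109743784 (miR-410), chr12:109742422-109742446 (miR-541), chr12:109724363-109724384 (miR-300), chr12:109726870-109726891 (miR-381), chr12:109711806-109711827 (miR-380-5p), chr12:109740553-109740574 (miR-377), chr12:109717269-109717289 (miR-543*) and chr12:109715367-109715388 (miR-494).

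The members with a sequence hardly share seeds. The 57 sequences had 55 different seeds, and only 2 seeds occurred in more than 1 of them, both in minor 5p arms that begin alike. They are shown as the only such pairs among the 57 sequences. The seeds of the 3 members without a sequence were not compared, so that further shared seeds may exist.
miR-494*: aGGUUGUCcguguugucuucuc
miR-410*: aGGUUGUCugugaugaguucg
miR-1197*: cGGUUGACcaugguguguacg
miR-758*: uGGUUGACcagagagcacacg
miR-300 and miR-381 differ by G4A, U21G and C22U, written from miR-300 to miR-381 and counted from the 5′ end, so that only the first of these falls in the seed. The seed of miR-154* differs from that of miR-369-3p by C4A, from miR-154* to miR-369-3p. The members with an unadjusted p under 0.05 thus had no seed in common. Whether the probes for miR-300 and miR-381 also bind each other's target was not tested, and the values of both are uncertain in that respect.

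Most members were close to the detection limit in these livers. An array spot was called detected when its scanner signal exceeded the blank spots of the same array by 2 SD, and 40 to 54 of the 60 member probes were detected on the MCD arrays and 46 to 52 on the MCD + metformin arrays. The 24 negative control spots of each array were a stricter mark. Above their mean plus 2 SD there were 4, 8, 11 and 3 member probes on MCD replicates 1 to 4, and 2, 1, 2 and 3 on MCD + metformin replicates 1 to 4. MCD replicates 1, 2 and 3 thus had more such members than any metformin array, and MCD replicate 4 had as many as MCD + metformin replicate 4. These counts were made on scanner signals from which the local background, which differed between the groups, had not been subtracted. The same counts per array over all 1135 probes are not given here. Above the blank spots there were 868 to 970 of all probes on the MCD arrays and 848 to 1018 on the MCD + metformin arrays. Over the 8 arrays, 44 of the 60 probes never exceeded the negative control spots, and 1 probe, miR-494, did so on every array. Of all 1135 probes, 158 did so on every array.

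**Figure D1:**
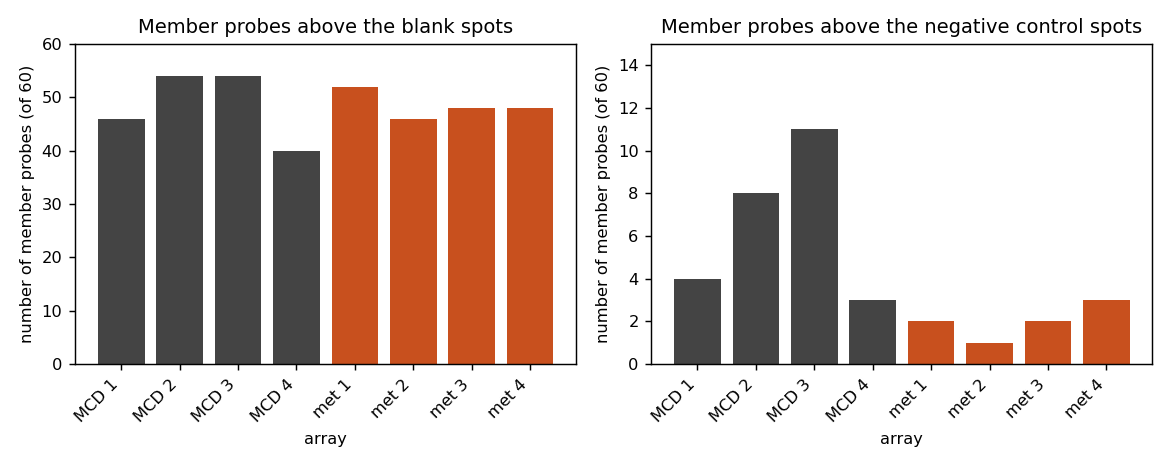
Number of the 60 member probes above the blank spots (left) and above the negative control spots (right) on each array, with MCD in grey, MCD + metformin (met) in orange, and a vertical scale that differs between the panels. From 40 to 54 members passed the blank spots, but only 1 to 11 passed the negative control spots, with the highest number on MCD replicate 3.

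The levels given here are normalised signals, that is, scanner signals after background correction with an offset of 50 and a shift of each array to a common median. On this scale the median blank spot was at 77.8 to 87.3 on the MCD arrays and 74.5 to 84.4 on the MCD + metformin arrays, and the median negative control spot at 115 to 132 and 123.5 to 126.7. The mean of 28 of the 60 members lay above the negative control level in MCD-fed mice, and that of 22 with metformin. Because of the offset, fold changes of dim probes are understated. The position of the arrays in the scanned image separated the groups completely, at 3680 to 3690 against 35240 to 35270 on the vertical axis, and so did the median local background, at 156 to 162 against 135 to 143. The effects of array position and of metformin cannot be told apart.

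The groups were compared with limma, a linear model that shares variance information across probes. With its unadjusted p under 0.05, 4 of the 58 tested members were lower under metformin (miR-154*, miR-410, miR-300 and miR-541) and 1 was higher (miR-543*). Together these were 8.62% of the members tested, against 9.44% of all 1070 probes tested, so that the share of changed members was near that of the whole array. By direction, 6.9% of the members were lower against 3.08% of all probes, and 1.72% were higher against 6.36%. After Benjamini-Hochberg adjustment over the 1070 probes none passed 0.05 in limma, the smallest adjusted p of a member being 0.195, whereas 2 did without MCD replicate 4 (miR-154* and miR-410, adjusted p = 0.0318 for each). The split of 4 lower and 1 higher became 7 and 1 with a shift on all probes and with quantile normalization, and 9 and 0 without scaling. Over all probes the split of 33 lower and 68 higher became 36 and 63 with a shift on all probes, 50 and 43 with quantile normalization and 60 and 24 without scaling, so that the excess of higher over lower probes on the whole array was kept with the shift and turned with the other two. The test named in the methods called 6 members lower and 0 higher without adjustment, and 0 members with Benjamini-Hochberg adjustment. Of all 1070 probes it called 32 lower and 51 higher without adjustment. Higher calls thus outnumbered lower ones on the whole array there, but not among the members.

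The median log2 fold change was -0.04 over the 58 members and 0.03 over all 1070 probes, with members between -0.54 and 0.35. Negative values were found for 33 members, or 56.9%, against 41.6% of all probes. The median of the members was -0.05 with a shift on all probes, -0.07 with quantile normalization and -0.11 without scaling, 0.003 without MCD replicate 2, -0.09 without MCD replicate 1, -0.08 without MCD replicate 3 and -0.22 in the deposited value table. On single arrays the tested members lay, in the median, 0.05, 0.10, -0.01 and -0.03 log2 units from their own means on MCD replicates 1 to 4, and -0.06, -0.02, 0.01 and -0.02 on MCD + metformin replicates 1 to 4. The groups overlapped on this measure. The other miRNAs of the locus were measured on the same arrays. Of the 6 probes for miR-379, miR-411 and miR-299, 5 were lower by the same threshold, with a median log2 fold change of -0.57. Of the 5 tested probes of the miR-376 family 2 were lower (median -0.16), of the 12 anti-Rtl1 probes (miRNAs antisense to the Rtl1 gene) 4 were lower (median -0.13), and of the 16 tested probes for the other listed miRNAs of the locus 0 were lower or higher (median 0.04). The differences between these groups were not tested.

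miR-154* gave the smallest p of the members. It is the 3p arm of the miR-154 hairpin, after which the precursor family of many miRNAs of this cluster is named. MCD replicates 1 to 4 gave normalised signals of 191, 162, 201 and 136.1 for miR-154*, and MCD + metformin replicates 1 to 4 gave 121.6, 94.7, 121 and 137. Every metformin array except replicate 4 lay below every MCD array, and MCD + metformin replicate 4 lay just above MCD replicate 4. The means were 173 ± 29.4 against 118 ± 17.5 (SD, n = 4 each), a log2 fold change of -0.54 (standard error 0.14), with an unadjusted p of 0.00178 and an adjusted p of 0.195 from limma, and p = 0.0571 in the exact permutation test. It exceeded the negative control spots on 3 arrays. The 5p arm, miR-154, had a mean signal of 139 ± 16.9 in the MCD group and of 120.5 ± 8.06 under metformin (SD, n = 4 each, log2 fold change -0.20, standard error 0.12), with an unadjusted p of 0.109 from limma, so that the arm regarded as the major product did not pass. Both arms had their highest signal on MCD replicate 3.

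miR-410 comes from the last hairpin of the cluster and is known to promote insulin secretion in a mouse beta-cell line. The groups of miR-410 and miR-380-5p did not overlap, with lower values under metformin, and those of miR-543* did not overlap, with higher values. Over all probes tested this was so for 1.96% in the lower and 2.8% in the higher direction. For miR-410, normalised signals of 169, 119, 142.9 and 107 were read in MCD replicates 1 to 4 and of 89.8, 92.6, 94.3 and 97.9 in MCD + metformin replicates 1 to 4. The metformin arrays were tightly grouped, below the negative control level and above the blank spots, while the MCD arrays were spread widely with replicate 1 highest. Group means were 134.5 ± 27.6 against 93.7 ± 3.34 (SD, n = 4 each), a log2 fold change of -0.50 (standard error 0.13), with an unadjusted p of 0.00194 and an adjusted p of 0.195 from limma, and p = 0.0286 in the exact permutation test. The smallest p that this permutation test can give is 0.0286. The scanner signal before correction exceeded the negative control spots on 2 arrays, MCD replicates 1 and 3. The other arm, miR-410*, was detected on 3 arrays and was not tested, and its normalised signal was 111 ± 8.27 in the MCD group and 113 ± 18.7 under metformin (SD, n = 4 each).

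miR-300 and miR-381 carry nearly the same 3p sequence. miR-300 had normalised signals of 165, 153, 182 and 137 in MCD replicates 1 to 4 and of 126.4, 138, 129 and 125 in MCD + metformin replicates 1 to 4. Only MCD + metformin replicate 2 reached into the MCD range, which it entered at MCD replicate 4. This was 159 ± 18.7 against 129.7 ± 6.04 (SD, n = 4 each), a log2 fold change of -0.29 (standard error 0.11), with an unadjusted p of 0.0212 and an adjusted p of 0.407 from limma, and p = 0.0571 in the exact permutation test. Without MCD replicate 3 the unadjusted p of miR-300 was 0.0724. The normalised signal of miR-381 was 152, 159, 190.1 and 128.0 on the arrays of MCD replicates 1 to 4 and 135, 127.1, 133.8 and 143.2 on those of MCD + metformin replicates 1 to 4. Its order over the MCD arrays was that of miR-300 at both ends, with replicate 3 highest and replicate 4 lowest, but its groups overlapped more. The means were 157 ± 25.6 against 135 ± 6.59 (SD, n = 4 each), a log2 fold change of -0.21 (standard error 0.12), with an unadjusted p of 0.107 and an adjusted p of 0.646 from limma, and p = 0.114 in the exact permutation test. miR-300*, the 5p arm, had a mean signal of 103 ± 12.2 in the MCD group and of 107 ± 8.69 under metformin (SD, n = 4 each, log2 fold change 0.05, standard error 0.12) and did not pass.

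miR-541 lies in the last group of hairpins, before miR-409. MCD replicates 1 to 4 gave normalised signals of 135, 189.7, 189 and 134.1 for miR-541, and MCD + metformin replicates 1 to 4 gave 121, 142.3, 119.5 and 123.6. The MCD arrays fell into a high pair, replicates 2 and 3, and a low pair, replicates 1 and 4, and the low pair lay within the metformin range. Group means were 162 ± 31.6 against 126.5 ± 10.7 (SD, n = 4 each), a log2 fold change of -0.34 (standard error 0.14), with an unadjusted p of 0.0242 and an adjusted p of 0.425 from limma, and p = 0.0857 in the exact permutation test. The unadjusted p of miR-541 was between 0.0512 and 0.0845 when MCD replicate 2, MCD replicate 3, MCD + metformin replicate 1 or MCD + metformin replicate 3 was left out, and 0.0682 in the methods' t-test. miR-541* had a mean signal of 117 ± 28.9 in the MCD group and of 113 ± 18.9 under metformin (SD, n = 4 each, log2 fold change -0.03, standard error 0.17).

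**Figure D2:**
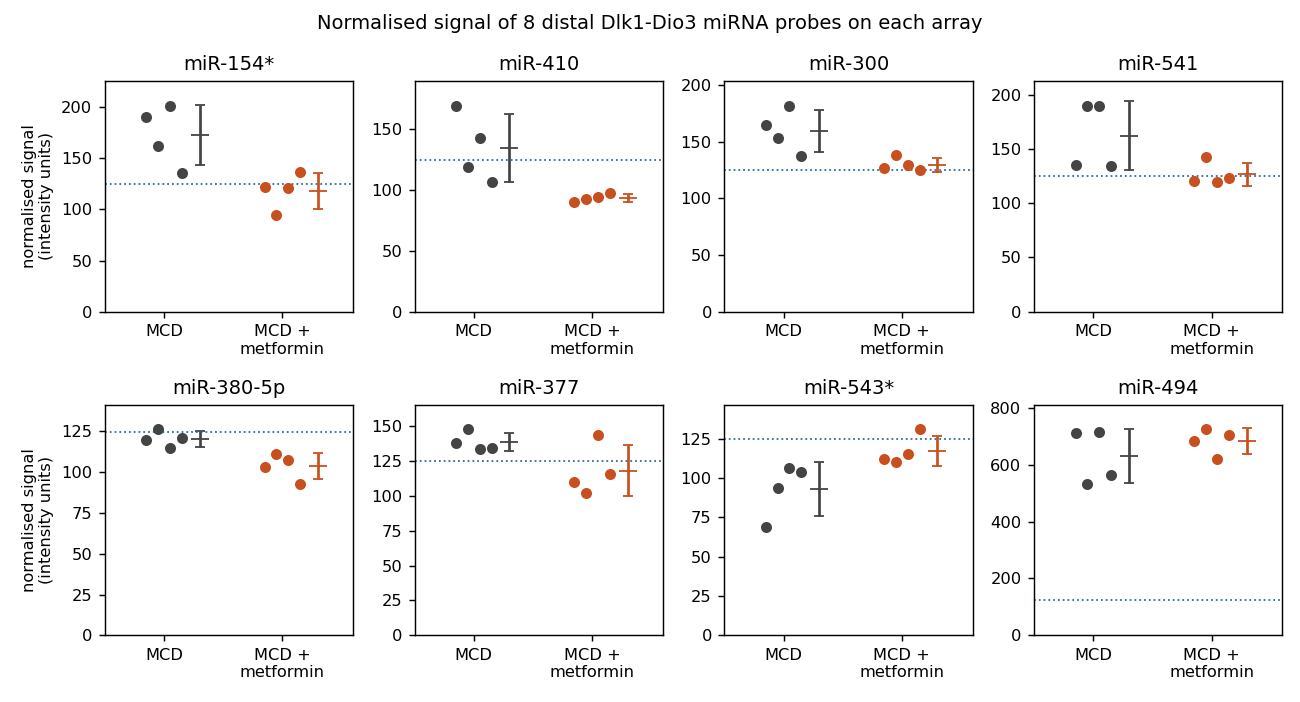
Normalised signal (vertical axis, intensity units, from 0) of 8 member probes on each of the 4 MCD (grey) and 4 MCD + metformin (orange) arrays, with the mean ± SD beside the points and the median level of the negative control spots as a dotted line. The metformin arrays of miR-410 lie between 89.8 and 97.9, below all MCD arrays, whereas miR-494 lies far above the dotted line in both groups.

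A further 5 members had negative values with an unadjusted p between 0.05 and 0.1, namely miR-380-5p, miR-377, miR-134, miR-495 and miR-369-5p. miR-380-5p, which is known to repress p53 in neuroblastoma, comes from the first hairpin of the group. For miR-380-5p, normalised signals of 119.5, 126.2, 115 and 121 were read in MCD replicates 1 to 4 and of 103, 111, 107 and 92.7 in MCD + metformin replicates 1 to 4. All metformin arrays lay below all MCD arrays. This was 120.3 ± 4.78 against 104 ± 7.89 (SD, n = 4 each), a log2 fold change of -0.22 (standard error 0.11), with an unadjusted p of 0.0553 and an adjusted p of 0.538 from limma, and p = 0.0286 in the exact permutation test. It passed the unadjusted threshold in 9 of 20 alternatives, among them the deposited value table (log2 fold change -0.63). The 3p arm of the same hairpin had values of the other sign. miR-380-3p had a mean signal of 106 ± 4.89 in the MCD group and of 121 ± 16.3 under metformin (SD, n = 4 each, log2 fold change 0.17, standard error 0.12), with an unadjusted p of 0.162 from limma.

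miR-377 is known from kidney mesangial cells, where it raises fibronectin. miR-377 had normalised signals of 137, 147, 133.5 and 134.1 in MCD replicates 1 to 4 and of 110.0, 102, 144 and 115 in MCD + metformin replicates 1 to 4. On 3 of the 4 metformin arrays it was below every MCD array, while MCD + metformin replicate 3 was exceeded only by MCD replicate 2. The means were 138 ± 6.43 against 118 ± 18.2 (SD, n = 4 each), a log2 fold change of -0.24 (standard error 0.12), with an unadjusted p of 0.0618 and an adjusted p of 0.563 from limma, and p = 0.114 in the exact permutation test. Without MCD + metformin replicate 3 the unadjusted p was 0.0085. miR-377 passed the unadjusted threshold in 9 of 20 alternatives, among them the deposited value table (log2 fold change -0.72). Its 5p arm, miR-377*, had a mean signal of 120.3 ± 13.3 in the MCD group and of 128.2 ± 17.6 under metformin (SD, n = 4 each, log2 fold change 0.09, standard error 0.12). miR-134, which in rat neurons limits the size of dendritic spines, had a mean signal of 128.3 ± 12.6 in the MCD group and of 107 ± 21.1 under metformin (SD, n = 4 each, log2 fold change -0.28, standard error 0.14). Its metformin arrays were split, with replicates 1 and 2 at 85.0 and 92.6 and replicates 3 and 4 at 126.1 and 123.6, and the unadjusted p was 0.0626 from limma. miR-495 had a mean signal of 145.0 ± 8.57 in the MCD group and of 125 ± 12.2 under metformin (SD, n = 4 each, log2 fold change -0.22, standard error 0.11), and an unadjusted p of 0.0696.

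The 4 members with positive values and the smallest p were miR-543*, miR-679-3p, miR-495* and miR-380-3p, of which miR-543* alone passed. The normalised signal of miR-543* was 68.9, 93.9, 106 and 104 on the arrays of MCD replicates 1 to 4 and 112, 109.9, 115 and 131 on those of MCD + metformin replicates 1 to 4. Every metformin array was above every MCD array, and the distance rested in part on MCD replicate 1, which was far below the others. Group means were 93.1 ± 16.99 against 117 ± 9.49 (SD, n = 4 each), a log2 fold change of 0.35 (standard error 0.14), with an unadjusted p of 0.0229 and an adjusted p of 0.422 from limma, and p = 0.0286 in the exact permutation test. Without MCD replicate 1 the log2 fold change of miR-543* was 0.20 and the unadjusted p was 0.108, and the threshold was passed in 14 of 20 alternatives. It was detected above the blank spots on 2 of the 4 MCD arrays and on all metformin arrays, and never exceeded the negative control spots. The major arm, miR-543, had a mean signal of 126.1 ± 24.7 in the MCD group and of 121 ± 20.7 under metformin (SD, n = 4 each, log2 fold change -0.05, standard error 0.15).

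MCD replicates 1 to 4 gave normalised signals of 124.2, 99.0, 85.3 and 123 for miR-679-3p, and MCD + metformin replicates 1 to 4 gave 132.2, 140.3, 141.5 and 110.2. Its groups overlapped through MCD + metformin replicate 4, which was below MCD replicates 1 and 4. This was 108 ± 19.0 against 131 ± 14.5 (SD, n = 4 each), a log2 fold change of 0.29 (standard error 0.14), with an unadjusted p of 0.0504 and an adjusted p of 0.528 from limma, and p = 0.114 in the exact permutation test. It passed the unadjusted threshold in 9 of 20 alternatives. The 5p arm, miR-679-5p, had a mean signal of 119.8 ± 8.77 in the MCD group and of 116 ± 9.66 under metformin (SD, n = 4 each, log2 fold change -0.04, standard error 0.11). miR-495*, the minor arm of miR-495, had a mean signal of 110.3 ± 18.4 in the MCD group and of 125.9 ± 9.56 under metformin (SD, n = 4 each, log2 fold change 0.20, standard error 0.13), and an unadjusted p of 0.131 from limma. As with miR-380 and miR-543, the arms of the miR-495 hairpin had opposite signs.

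The arms of a hairpin did not move together in general. Both arms were tested for 28 hairpins, and they had opposite signs in 16, both negative values in 8 and both positive values in 4. Across these 28 hairpins Pearson's r between the fold changes of the 5p and 3p arms was -0.10. This is a description, since all points share the same 8 arrays and most arms are dim. The 30 tested 3p arms had a median log2 fold change of -0.06 with 3 lower and 0 higher, and the 28 tested 5p arms a median of -0.03 with 1 lower and 1 higher. The members were also grouped by the form of their name on the array. Of 19 tested members with a plain name, 16 had a negative log2 fold change, with a median of -0.19 and 3 lower. Of 18 tested members with an asterisk, 7 did, with a median of 0.02, 1 lower and 1 higher. Of 21 tested members whose name states the 3p or 5p arm, 10 did, with a median of 0.001, 0 lower and 0 higher. This grouping was made after the values were seen and was not tested.

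**Figure D3:**
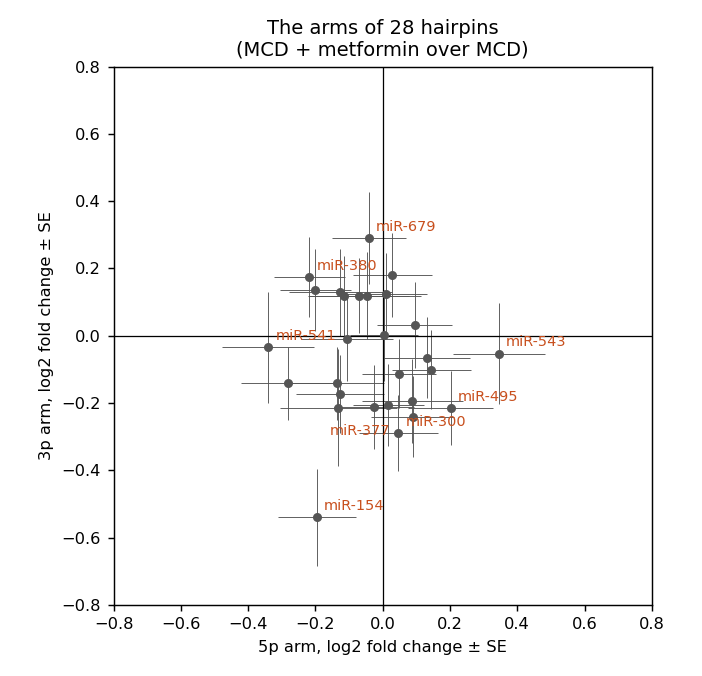
Log2 fold change ± standard error of the 5p arm (horizontal) and the 3p arm (vertical) of 28 hairpins with both arms tested, MCD + metformin over MCD, with the hairpins named in the text labelled. The points scatter around 0 without a diagonal trend, 16 of the 28 lying in the quadrants of opposite sign.

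The position in the locus was compared in the same way. The 4 lower members lie from miR-300 on, which starts 12.51 kb after miR-380, and the higher member lies before it. From miR-300 on, 33 members were tested, 22 of them with a negative log2 fold change, with a median of -0.12. Before miR-300, 25 were tested, 11 of them with a negative value, with a median of 0.02. The boundary was set after the values were seen, so that no test was made, and members that did not pass lay between the lower ones throughout. Between miR-541 and miR-410, for example, miR-409-3p had a value of 0.13.

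**Figure D4:**
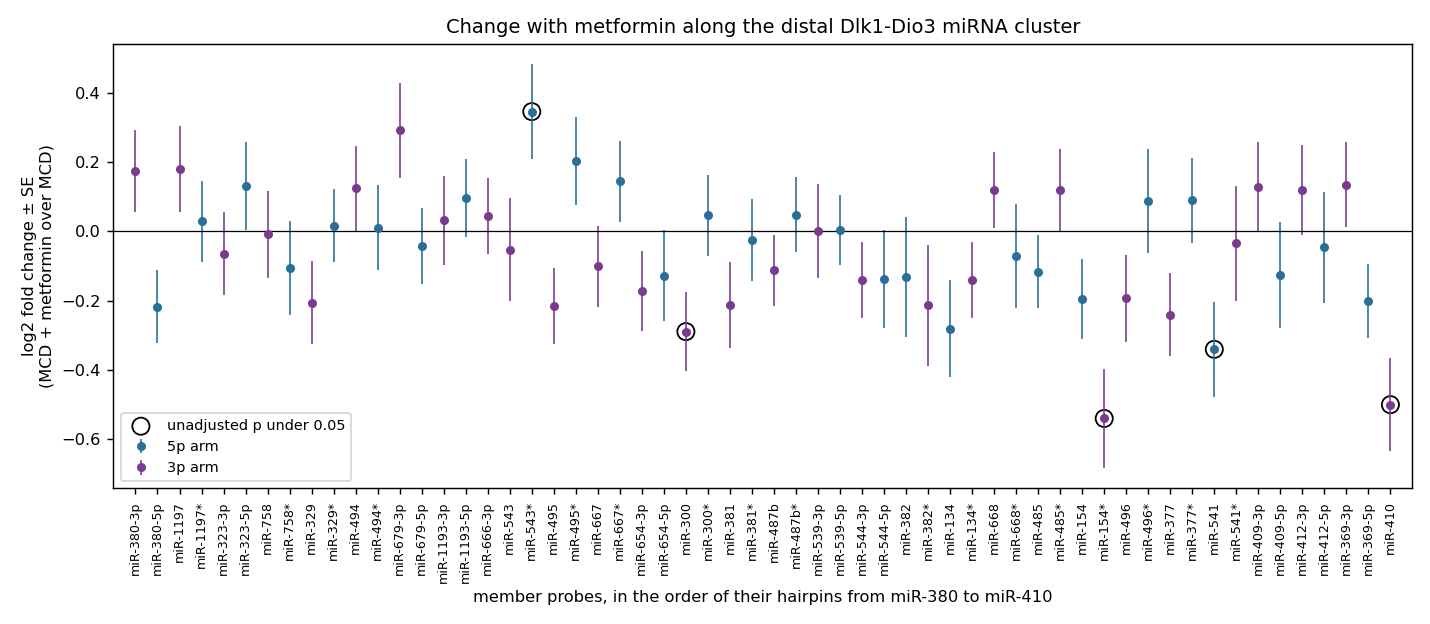
Log2 fold change ± standard error (vertical) of the 58 tested members in the order of their hairpins from miR-380 to miR-410 (horizontal), with 5p arms in blue, 3p arms in purple and an unadjusted p under 0.05 circled. The circled points are miR-543* above 0, and miR-300, miR-154*, miR-541 and miR-410 below 0.

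miR-494 was the only member far above the background. For miR-494, normalised signals of 711, 532, 715 and 564 were read in MCD replicates 1 to 4 and of 683, 724, 619 and 703 in MCD + metformin replicates 1 to 4. MCD replicates 2 and 4 were lower than the other arrays, and all metformin arrays lay between the lowest and just above the highest MCD array. The means were 631 ± 96.0 against 682 ± 45.2 (SD, n = 4 each), a log2 fold change of 0.12 (standard error 0.12), with an unadjusted p of 0.33 and an adjusted p of 0.806 from limma, and p = 0.343 in the exact permutation test. The difference was thus within the spread between replicates at the signal at which it could best be measured. For its other arm, miR-494*, the log2 fold change was 0.01 (standard error 0.12).

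Further members were named for a known role or because the study named them. miR-485, which acts on synapses in rat neurons, had a mean signal of 119 ± 9.95 in the MCD group and of 109 ± 3.34 under metformin (SD, n = 4 each, log2 fold change -0.12, standard error 0.11). miR-409-3p, which is known to repress fibrinogen in human hepatoma cells, had a mean signal of 120.0 ± 16.6 in the MCD group and of 131 ± 16.0 under metformin (SD, n = 4 each, log2 fold change 0.13, standard error 0.13). Neither passed the test. miR-487b had a mean signal of 141 ± 8.04 in the MCD group and of 130.3 ± 5.01 under metformin (SD, n = 4 each, log2 fold change -0.11, standard error 0.10) and p = 0.0571 in the exact permutation test, with MCD replicate 1 inside the metformin range. miR-544-3p had a mean signal of 133.4 ± 10.3 in the MCD group and of 121 ± 8.79 under metformin (SD, n = 4 each, log2 fold change -0.14, standard error 0.11) and miR-1193-3p had a mean signal of 123 ± 14.9 in the MCD group and of 125.7 ± 16.7 under metformin (SD, n = 4 each, log2 fold change 0.03, standard error 0.13). The remaining 34 members did not pass the unadjusted threshold in the reported setting, in which the tested ones among them had log2 fold changes between -0.21 and 0.18. In the deposited value table, miR-382* had a log2 fold change of -0.999 (unadjusted p = 0.00751 from limma) and miR-1197* had a value of -0.68 (unadjusted p = 0.0476), against -0.21 and 0.03 in the reported setting, so that miR-1197* had the opposite sign there. The values of miR-1197* in that table were 53.4 and 38.3 on MCD replicates 1 and 2, empty on MCD replicates 3 and 4, and 27.9, 30.8, 27.6 and 27.1 on MCD + metformin replicates 1 to 4. Those of miR-382* were 40.3, 49.8 and 126 on MCD replicates 1 to 3, empty on MCD replicate 4, and 24.4, 32.7, 38.8 and 32.4 on MCD + metformin replicates 1 to 4. MCD replicate 4 was its lowest array in the reported setting. These and the members among the 34 that passed in other alternatives (miR-382*, miR-329, miR-496 and miR-369-5p, all with negative values) were named after their values were seen. Some named members that did not pass in the reported setting also passed in alternatives. Besides those given above, miR-134 did so in 7 of 20, miR-495 in 5 of 20 and miR-381 in 2 of 21. miR-544-3p, miR-380-3p and miR-495* did so in 1 of 20 each.

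The size of the fold changes differed between settings. With normexp and offset 0, the log2 fold change was -0.92 for miR-410, -0.85 for miR-154*, -0.52 for miR-541, -0.44 for miR-300 and 0.69 for miR-543*. In the value table deposited by the authors, which has its own background, scaling and filter and in which dim probes are empty, the values were -1.09, -0.86, -0.86, -0.79 and 0.61. There miR-154* was empty on MCD + metformin replicate 2 and miR-543* on MCD replicate 1, the lowest array of each in the reported setting. miR-543* did not pass there (unadjusted p = 0.0611 from limma). In that table miR-410 was listed at 106, 43.1, 80.7 and 39.8 on MCD replicates 1 to 4 and at 26.14, 26.03, 29.6 and 35.52 on MCD + metformin replicates 1 to 4. The groups again did not overlap. Of the members with values on at least 2 arrays of each group there, 59 were tested, and limma called 10 lower and 0 higher without adjustment and 0 with it. Over all 1086 probes tested in that table, 51 were lower and 31 higher without adjustment, so that lower calls outnumbered higher ones there on the whole array too. The directions of miR-154*, miR-410, miR-300, miR-541 and miR-543* were the same in every alternative in which they were tested.

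**Figure D5:**
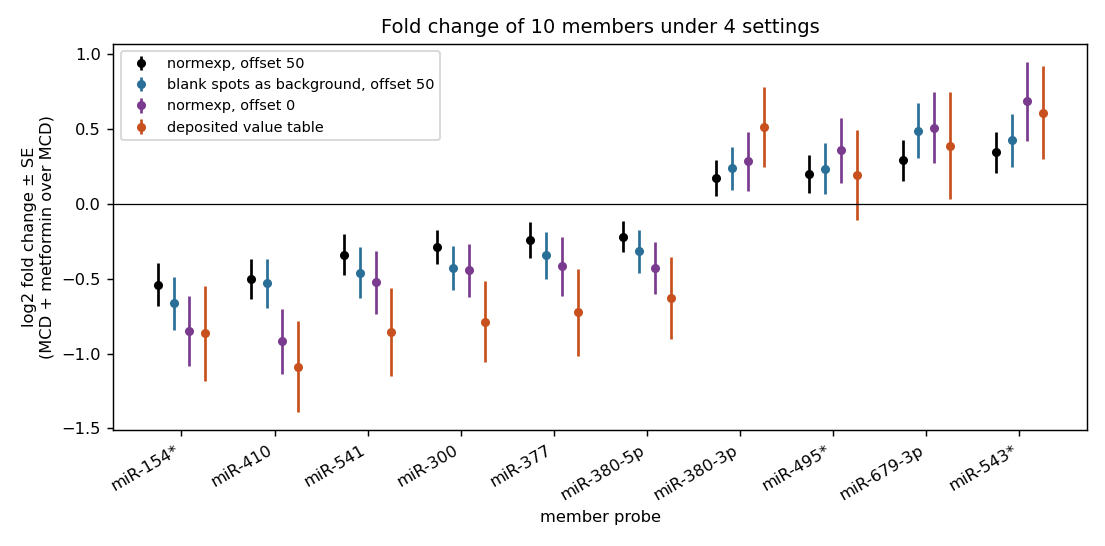
Log2 fold change ± standard error (vertical, MCD + metformin over MCD) of 10 member probes under 3 treatments of the background and in the deposited value table, which also has another scaling and filter. For miR-410 the value goes from -0.50 with normexp and offset 50 to -1.09 in the deposited value table, with the same sign throughout.

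Markers of the cells in the sample were read on the same arrays. All 5 hepatocyte probes (miR-122, miR-122*, miR-192, miR-194 and miR-148a) were above the negative control spots on every array, and all 5 were higher under metformin at limma's unadjusted threshold. Their summed normalised signal was 23505 to 25580 in the MCD group against 29358 to 38793. Most of this sum was miR-122, with means of 17606 in the MCD group and 23993 under metformin. Over all 1070 probes tested, 6.36% were higher and 3.08% lower at that threshold. Of 5 probes of stellate cells and fibroblasts, 4 exceeded the negative control spots on every array and 1 was lower, with sums of 2101 to 4075 and 1901 to 3599. Of 4 leukocyte probes 1 was lower (848 to 1347 and 707 to 952), and both endothelial probes were higher (3727 to 4648 and 4816 to 5655). Of the 5 brain probes found on the array, 4 never exceeded the negative control spots, miR-124 among them, and 0 were lower or higher (483 to 572 and 539.7 to 624). Of 3 muscle probes 2 never did (327.7 to 376.9 and 327 to 363). The part of these cell types in the values of the members was not tested. In whole tissue, fewer cells of a type and less RNA per cell cannot be told apart.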

How the data were processed

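Median spot signals and local backgrounds of 8 single-colour arrays (3D-Gene mouse miRNA Oligo chip, Hy5 label) were analysed. The authors scanned the arrays and deposited the raw intensity of each spot, unnormalised, and a value table of normalised intensity, in which each column has a median of 45 and dim probes are empty. Whether its 28S normalization and baseline correction to the median were applied as the methods state stays unknown. Per the labels, the titles of the samples gave group and replicate.

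From the scanner values, R 4.3.3 and limma 3.58.1 were used for normexp correction (offset 50), removal of control spots, log2 transformation and a shift of each array to a common median of the 451 probes detected throughout. A probe was detected where it exceeded the 1818 blank spots by 2 SD over their mean, and the 1070 probes detected on 4 or more arrays entered an unpaired, two-sided fit (lmFit, eBayes) with Benjamini-Hochberg adjustment over all of them. Negative log2 fold changes denote lower signals under metformin. Exact permutation tests were two-sided over all 70 assignments of 4 against 4. The fit was tested on simulated data with independent noise and planted changes larger than that of any member in the reported setting. The power of the fit at the sizes reported here was not tested. Precision is limited by the 4 arrays per group.

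The probes described and the lists compared with them were chosen with earlier results of these data known. Named were the 6 lower and 4 higher members with the smallest p, members exceeding the negative control spots on 4 or more arrays, the other arms of the former, and a fixed list of further members, which holds only some of those with a known role or named by the study. Other choices are marked as such. RefSeq (GRCm38.p6) supplied sequences and positions. Plain and starred names were assigned to the 5p or 3p arm from general knowledge of miRNA nomenclature, and miR-496 was matched to miR-496a. Alternatives were other scalings, backgrounds and filters, the deposited table, the methods' t-test, moderated variance with a trend, a replicate block, and the omission of single arrays. A block for slide or scan date was not run, since no column gives either.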

Additional observations from a re-analysis of the deposited data

Results flagged for a closer look

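Of 52 groups of 4 arrays, 26 named members in each treatment, 2 held an array that stood apart by Dixon's test at 4 samples, for which chance alone flags about 5% of groups. The normalised signal of miR-1193-3p on MCD + metformin replicate 4 was 101, against 131 to 137 on the other metformin arrays, and on the log2 scale, on which the test was made, this gap was 0.857 of the range of the group. The signal of miR-377* on MCD + metformin replicate 2 was 154.4, against 117 to 121.6 on the others, a gap of 0.871 of the range on the log2 scale. Neither miRNA passed the unadjusted threshold, and the cause was not tested.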

How the results depend on the processing

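No named member whose change passed the unadjusted threshold, in the reported setting or in an alternative, differed in sign between these settings. Of the other 34 members, miR-1197*, which was called lower in the deposited table, did so. The count of 5 members past an unadjusted p of 0.05 from limma was 8 with quantile normalization, with a shift on all probes, with blank spots as background, without background correction and with trend and robust variance, 9 without scaling and with offset 0, and 10 in the deposited table, which tested 59 members. It was 3 among probes above the blank spots on all 8 arrays, where 16 members were tested, and 0 among probes exceeding the negative controls on 4 or more arrays, where 1 member, miR-494, was tested. Leaving out 1 array gave 4 to 11. The highest count, 8 lower and 3 higher, came without MCD replicate 4, and 8 came without MCD + metformin replicate 4. Over all probes tested, the split was 45 lower and 48 higher without the former, and 36 and 54 without the latter. The whole array split into 43 and 41 when blank spots served as background, and 39 and 41 with the background left in. Trend and robust variance gave 33 and 64, and normexp at offset 0 gave 38 and 60. The filter on blank spots gave 15 and 41 of 451 probes, and that on negative controls 10 and 24 of 221. The count after adjustment was 0 in all alternatives except without MCD replicate 4, so that its range was 0 to 2. The median of the members, -0.04, was -0.107 and 0.124 with these filters, -0.219 in the deposited table, -0.114 without scaling, -0.093 with offset 0, 0.00035 with plain subtraction, and -0.090 to 0.0026 when 1 array was left out. Beyond the fewer members tested under the filters, the causes were not tested. The groups share replicate numbers that the labels do not describe as pairs. Same-numbered arrays deviated from their group means with correlations of -0.30 to 0.03, and no MCD array correlated best with the metformin array of its own number. With the replicate block the count was 5, with 4 lower and 1 higher, the median was -0.04 and 0 passed after adjustment. Signal over background limits these values, since 44 of the 60 members never exceeded the negative control spots.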

Other observations

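Among the members outside the rule for named miRNAs, 2 were singled out after their values were seen. The miR-369 hairpin, whose 3p arm is known to activate translation of TNF in starved human cells, again showed arms of opposite sign. miR-369-5p had a mean signal of 132.9 ± 10.1 in the MCD group and of 116 ± 5.77 under metformin (SD, n = 4 each, log2 fold change -0.20, standard error 0.11), with an unadjusted p of 0.0765 from limma, and miR-369-3p had a mean signal of 123 ± 15.4 in the MCD group and of 135 ± 13.3 under metformin (SD, n = 4 each, log2 fold change 0.13, standard error 0.12), with an unadjusted p of 0.285. Neither passed in the reported setting, and miR-369-5p did with the methods' t-test, with quantile normalization, without scaling and without MCD replicate 2. Over the 8 arrays, after removal of the group means, the median Pearson's r between pairs of the 58 tested members was 0.03, against 0.007 for pairs of all 1070 tested probes, and 0.06 for the 6 lower members with the smallest p. These are descriptions, since each r rests on deviations from 2 group means on 8 arrays.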
